A study of Homo sapiens with 4 samples.

Results

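The genes described here are those that encode the proteasome, its regulatory particles and its dedicated assembly factors, measured by RNA sequencing in SY5Y cells, a human neuroblastoma line derived from the sympathetic nervous lineage. They were taken as the protein-coding genes whose name begins with PSMA, PSMB, PSMC, PSMD, PSME, PSMF or PSMG. That rule names 49 genes, of which 48 had a row among the 57820 gene rows of the count tables. PSMB3, a structural subunit of the beta ring, was not analysed here because its identifier could not be matched to a row, and PSMC3IP, which shares the prefix but encodes a meiotic recombination factor, was kept out of the proteasome groups. This leaves 47 proteasome genes, of which 43 had enough fragments to be tested. The groups were fixed by role: 14 genes of the rings of the core particle, 17 of the base and lid of the regulatory cap, 7 assembly factors, 6 genes linked to the immunoproteasome and 3 other regulators.

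All 4 libraries came from SY5Y cells that the labels give as MYCN wild type, harvested 12 h after treatment. DMSO was given to 2 of them (the vehicle control) and SGSS05-NS at 3 μM to the other 2. For this line the study gives that dose in its figure legends and a lower one in its methods. The study calls the compound it used SGSS05-NS3 and names SGSS05-NS as another member of the same chemical series, so which of the pair the label means is not settled here. SGSS05-NS3 is described by the study as a covalent inhibitor of SETD8, the methyltransferase that places a single methyl group on lysine 20 of histone H4, and the comparison asks how its inhibition alters the transcriptome. A single cell line, a single dose and a single time point were sampled, and the replicates are described as independent biological replicates. Fragments assigned to genes ranged from 21463105 to 25350204 per library. The share of fragments outside annotated exons was 12.4% and 12.3% with DMSO and 16.1% and 15.3% with SGSS05-NS, and its part in the results was not tested. Of 9 markers of the sympathoadrenal neuroblastoma lineage, 8 were expressed, while TH, the enzyme that opens catecholamine synthesis, had between 0 and 2 fragments per library. The summed level of these markers was 2830 and 3060 CPM (fragments of a gene scaled to the size of its library) with DMSO and 1760 and 1550 with SGSS05-NS, so the lineage markers moved with the treatment, and 6 of the 8 tested were lower at the threshold used below. Immune markers summed to between 0.319 and 1.32 CPM, with CD3E at 0 in every library. Epithelial and endothelial markers summed to between 1.91 and 3.61 CPM, with KRT5 at 0, and mesenchymal or Schwann cell markers, nearly all of it TWIST1, summed to 154 and 171 CPM with DMSO and 102 and 88.8 with SGSS05-NS, with SOX10 and PRRX1 at 0. Whether these shifts bear on the proteasome genes was not tested.

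The proteasome degrades proteins tagged with ubiquitin. Its barrel-shaped core is built of stacked rings: the outer alpha rings control entry and the inner beta rings hold the catalytic subunits PSMB5, PSMB6 and PSMB7. A regulatory cap sits on the barrel. Its base carries a ring of ATPases (the PSMC genes) that unfold the substrate and thread it into the core, together with scaffold and ubiquitin-receptor subunits, and its lid removes the ubiquitin chain. After interferon signalling, PSMB8, PSMB9 and PSMB10 can replace the constitutive catalytic subunits to form the immunoproteasome, and PSME1 and PSME2 form an alternative activator. Cells that lose proteasome activity are known to raise subunit genes together through the transcription factor NRF1 (NFE2L1), which binds antioxidant response elements with small MAF proteins.

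Differences were tested with the quasi-likelihood test of edgeR over 16468 genes, and a gene was called at a Benjamini-Hochberg adjusted p under 0.001, the threshold of the study. Of the 43 tested proteasome genes, 1 was called higher with SGSS05-NS and 0 lower, against a background of 6.37% of all tested genes called higher and 8.14% called lower (14.5% in either direction). At an unadjusted p under 0.05, 1 member was lower (PSME1), and none was called lower by the likelihood ratio test, DESeq2 or limma voom. These tests called 5, 4 and 2 members higher, all in the regulatory cap, where the likelihood ratio test is the one named in the study's methods. Over all 16468 genes they called 2022, 1126 and 1005 higher. By the quasi-likelihood test at an adjusted p under 0.05 there were 9 members higher and 0 lower. That is 20.9% of members higher, against 22.6% of all genes higher and 23.7% lower (46.3% in either direction). The share of members that were higher was thus near the background. Of the 9 genes, 8 belonged to the regulatory cap. Both treated libraries lay above both DMSO libraries for 18 members and below them for 5, where 37.8% and 36.9% of all tested genes did so. The median log2 fold change was 0.08 over the members, with a range of -0.28 to 0.61, and 0.01 over all tested genes, whose middle 50% ran from -0.34 to 0.39. The values are relative to the other RNA in each library, and in these bulk samples fewer cells of a type and less RNA per cell cannot be told apart.

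**Figure D1:**
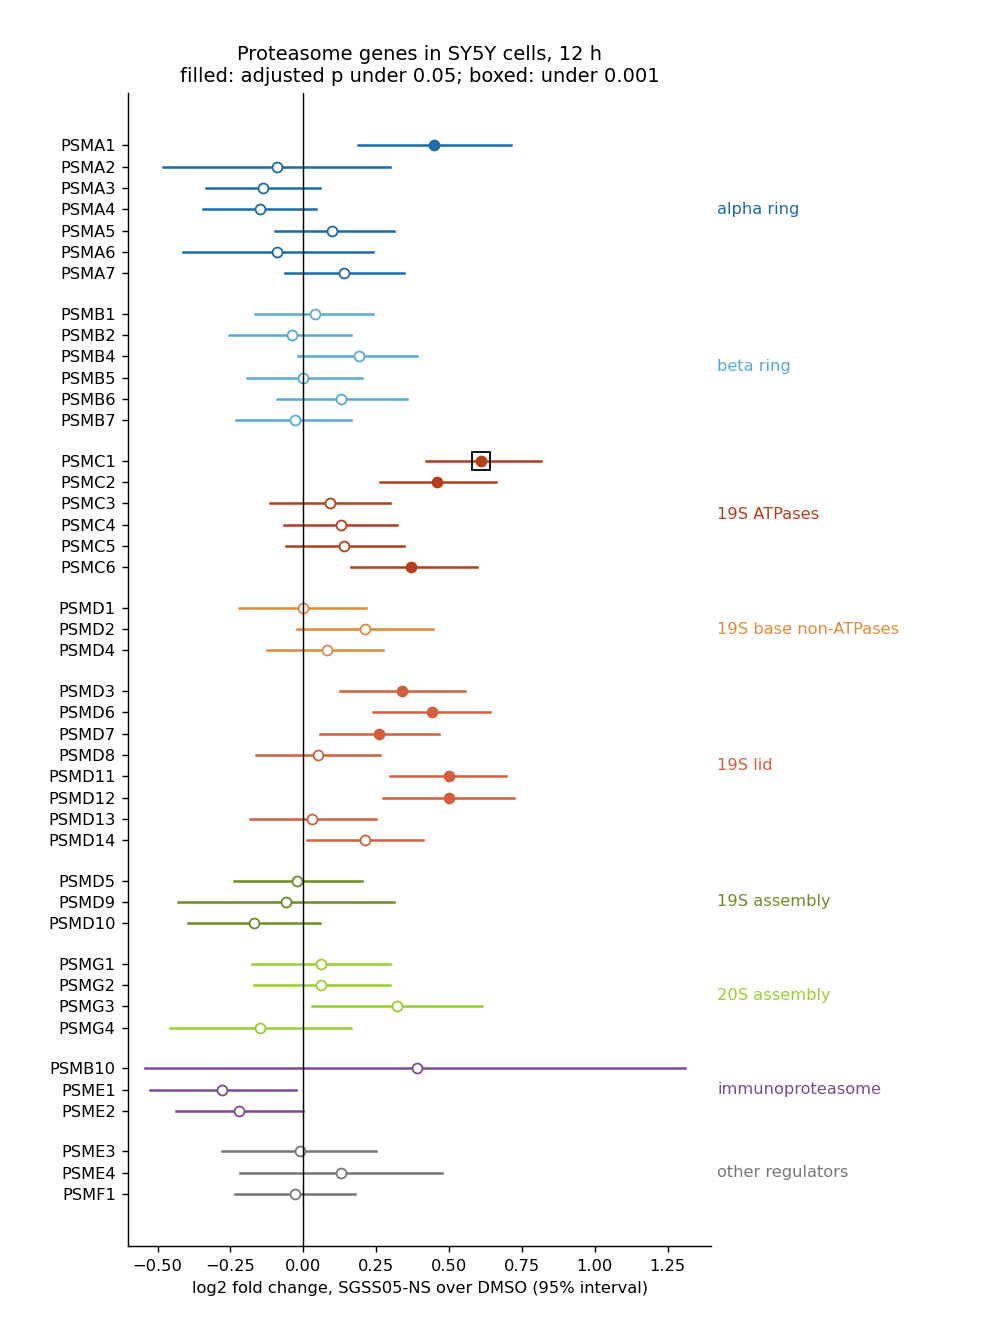
Log2 fold change of each of the 43 tested proteasome genes, SGSS05-NS over DMSO (x axis), by role group (y axis); lines are 95% intervals from edgeR, filled points have an adjusted p under 0.05 and the boxed point one under 0.001. PSMC1 is the boxed gene at 0.61, and 8 of the 9 filled points are ATPases or lid subunits of the regulatory cap.

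Promoter sequences are shown for PSMC1, the member that was called, for PSMD11 and PSMD12, the lid genes with the smallest p-values, and for the catalytic subunit PSMB5, whose level was the same in both conditions within its interval. Each is the stretch of 250 bases before the transcription start in the RefSeq annotation of GRCh38.p14, 5′ to 3′ on the strand of the gene. The stretches are chr14:90256303-90256552 on the plus strand for PSMC1, chr17:32444260-32444509 on the plus strand for PSMD11, chr17:67366578-67366827 on the minus strand for PSMD12 and chr14:23034901-23035150 on the minus strand for PSMB5. Capitals mark a match to the antioxidant response element core TGACNNNGC. RefSeq gives a further start for PSMB5, and the stretch before it, chr14:23035221-23035470 on the minus strand, is not shown. It held no such match and 1 match to CCAAT, the NF-Y box.
PSMC1: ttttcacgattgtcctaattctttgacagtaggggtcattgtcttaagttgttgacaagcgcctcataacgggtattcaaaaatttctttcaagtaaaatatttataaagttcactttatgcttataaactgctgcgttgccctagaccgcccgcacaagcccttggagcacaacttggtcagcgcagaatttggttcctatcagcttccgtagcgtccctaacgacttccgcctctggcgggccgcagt
PSMD11: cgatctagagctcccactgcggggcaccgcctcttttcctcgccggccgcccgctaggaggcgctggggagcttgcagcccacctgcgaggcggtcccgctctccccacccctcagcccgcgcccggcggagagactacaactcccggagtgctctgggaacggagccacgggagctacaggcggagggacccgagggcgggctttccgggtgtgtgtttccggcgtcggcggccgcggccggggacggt
PSMD12: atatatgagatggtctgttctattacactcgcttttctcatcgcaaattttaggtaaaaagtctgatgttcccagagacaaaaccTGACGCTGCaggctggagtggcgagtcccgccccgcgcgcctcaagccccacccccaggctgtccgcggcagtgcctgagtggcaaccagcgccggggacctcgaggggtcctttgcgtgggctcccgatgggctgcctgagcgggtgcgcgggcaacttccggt
PSMB5: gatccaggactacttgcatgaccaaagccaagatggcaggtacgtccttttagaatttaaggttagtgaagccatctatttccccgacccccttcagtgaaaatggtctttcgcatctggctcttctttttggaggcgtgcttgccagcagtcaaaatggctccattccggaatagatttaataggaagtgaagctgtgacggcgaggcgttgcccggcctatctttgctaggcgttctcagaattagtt

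Among these 4 windows the element was matched in that of PSMD12, between 165 and 157 bases before the start. Searched on both strands from 250 bases before to 50 after the start, TGACNNNGC was found in 14 of 50 windows of 41 members with a RefSeq promoter (28%), and in 13.3% of all 35116 promoter windows. By group, 5 of 18 windows of cap genes held it (27.8%) and 1 of 14 windows of core genes (7.14%). In genes rather than windows these were 5 of 16 cap genes and 1 of 10 core genes. Of the cap genes with a match, PSMD3 and PSMD12 passed an adjusted p of 0.05 by the quasi-likelihood test (0.0147 and 0.00182). PSMC4, PSMC5 and PSMD1 also had a match and did not pass (0.268, 0.232 and 0.983). PSMC1, PSMC2, PSMC6, PSMD6, PSMD7 and PSMD11 passed 0.05 and had no match. Whether a match goes with a change was not tested. The other matches lay outside both groups, in windows of PSMB9, PSMD5, PSMD9, PSME1, PSME2, PSME4, PSMG1 and PSMG2. Of these genes PSMB9 could not be tested, and none of the others passed an adjusted p of 0.05 by the quasi-likelihood test. PSMD3, a lid gene, had 2 matches, whereas PSMD1, a cap gene with a log2 fold change of 0.00, had 1. TGACTCA, the AP-1 or MAF core, which shares its opening TGAC with the first motif and can overlap it, was in 6% of member windows and 4.95% of all windows. CCAAT, the NF-Y box, was in 38% of member windows, 42.9% of core and 44.4% of cap windows, and 34.6% of all windows. The heat shock element was in 0 of the 50 member windows and in 0.49% of all windows. A match in such a window is a description of the letters and no evidence of binding.

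The regulatory cap held the member that was called. Of its 17 genes, 1 was higher at the 0.001 threshold and 8 (47.1%) at 0.05, none was lower at either, 16 had a log2 fold change above 0, and their median was 0.21. For 13 of the 17 both treated libraries lay above both DMSO libraries. The shares over all tested genes were 6.37% higher at 0.001, 22.6% at 0.05 and 37.8% with both treated libraries above. Within the cap, the ATPases had a median log2 fold change of 0.26 and a range of 0.09 to 0.61, the lid had a median of 0.30 and a range of 0.03 to 0.50, and the other base subunits had a median of 0.08 and a range of 0.00 to 0.21.

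PSMC1 encodes an ATPase of the base ring (ENSG00000100764.9, chromosome 14 of GRCh37 from 90722871 to 90741773, plus strand). Its counts were 2879 and 2674 fragments with DMSO against 3976 and 4042 with SGSS05-NS, which is 115 ± 0.204 CPM and 175 ± 5.16 CPM (SD, n = 2 each). The treated libraries were both above the DMSO libraries by far more than either group's spread. PSMC1 rose 1.53-fold (95% interval 1.34 to 1.76), a log2 fold change of 0.61 with a standard error of 0.09 and an adjusted p of 0.000215 by edgeR's quasi-likelihood test. The exons of PSMC1 overlap those of NRDE2 on the other strand, and 13 pseudogenes are named after it, so fragments that fit both PSMC1 and a copy were not counted.

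The other ATPases split into those near PSMC1 and those near no change. PSMC2 had 135 and 128 CPM with DMSO and 181 in each treated library, a ratio of 1.38 (95% interval 1.2 to 1.58) with an adjusted p of 0.00156. PSMC6 had 87.5 and 78.5 CPM with DMSO and 113 and 102 with SGSS05-NS, a ratio of 1.30 with an adjusted p of 0.00923. Neither passed 0.001, though in both genes the groups did not overlap. PSMC3, PSMC4 and PSMC5 had log2 fold changes of 0.09, 0.13 and 0.14, with adjusted p-values of 0.456, 0.268 and 0.232. PSMC3, the lowest of the 6, had 169 and 153 CPM with DMSO and 175 and 168 with SGSS05-NS, so its libraries overlapped. The protein ring contains all 6 ATPases, while the transcripts of 3 of them passed an adjusted p of 0.05 and those of the other 3 did not, a difference among the genes that was not itself tested.

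PSMD11 and PSMD12 encode scaffold subunits of the lid. PSMD11 (chromosome 17 of GRCh37 from 30771397 to 30810337) had 117 and 124 CPM with DMSO and 171 and 169 with SGSS05-NS, or 120 ± 5.40 and 170 ± 1.57 CPM (SD, n = 2 each). Its treated libraries were both higher, with a ratio of 1.41 (95% interval 1.23 to 1.62), and its adjusted p of 0.00101 lay just outside the threshold of 0.001. It passed 0.001 under 6 of the 9 other ways of testing the same 4 libraries. PSMD12 had 138 and 161 CPM with DMSO and 208 and 213 with SGSS05-NS, a ratio of 1.41 (95% interval 1.21 to 1.65) with an adjusted p of 0.00182. Its DMSO libraries differed from each other more than those of PSMD11, and both were below the treated libraries.

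The remaining lid genes followed in a graded order. PSMD6, PSMD3 and PSMD7 had ratios of 1.36, 1.26 and 1.2 and adjusted p-values of 0.00265, 0.0147 and 0.0364, and their treated libraries were above the DMSO libraries. PSMD14, the deubiquitinase of the lid, had 136 and 130 CPM with DMSO and 153 and 156 with SGSS05-NS, a ratio of 1.16 with an adjusted p of 0.0733. PSMD8 and PSMD13 had log2 fold changes of 0.05 and 0.03, with overlapping libraries. PSMD13 had 144 and 158 CPM with DMSO and 145 and 163 with SGSS05-NS, nearly the same pair of levels.

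The large scaffold subunits of the base differed little between conditions. PSMD1 had 214 and 210 CPM with DMSO and 227 and 197 with SGSS05-NS, a ratio of 0.998 (95% interval 0.859 to 1.16), so its treated libraries lay on both sides of the controls. PSMD2 had 267 and 255 CPM with DMSO and 330 and 274 with SGSS05-NS, a ratio of 1.16 with an adjusted p of 0.124. Here the groups did not overlap, but the treated libraries were farther from each other than the nearer of them was from the controls. PSMD4, a ubiquitin receptor, had a log2 fold change of 0.08 with an adjusted p of 0.517.

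**Figure D2:**
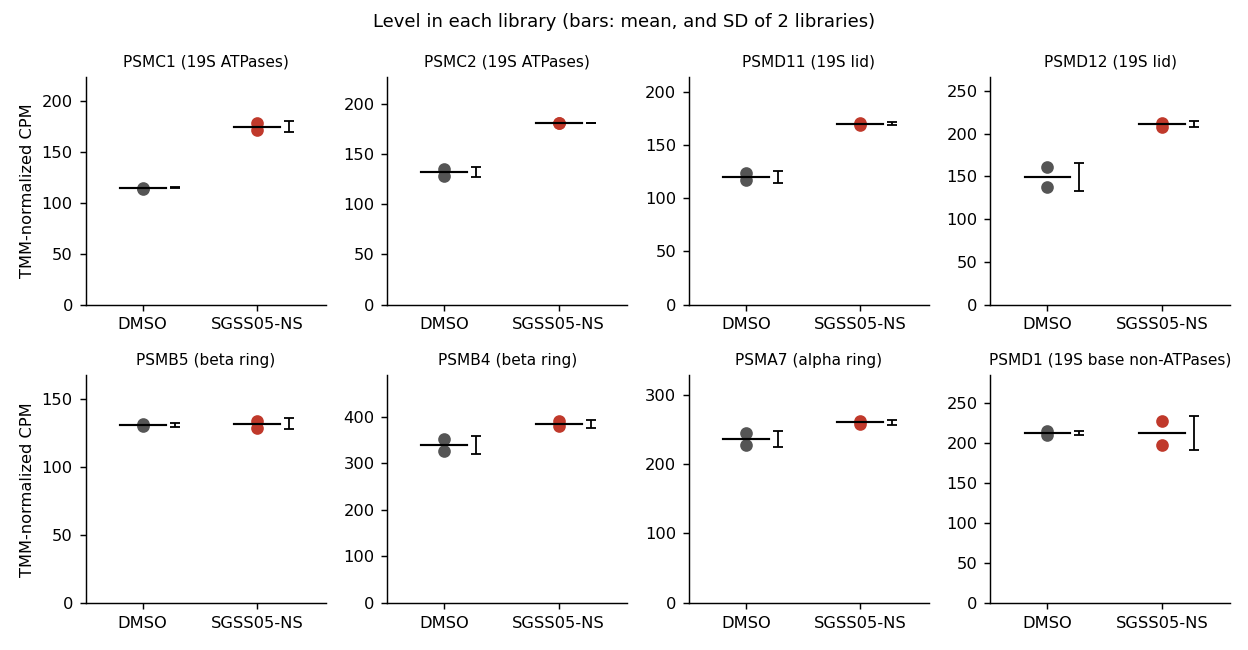
Level in each library, as TMM-normalized CPM (y axis from 0), for 4 cap genes with small p-values (top row) and for PSMB5, PSMB4, PSMA7 and PSMD1 (bottom row); points are libraries, horizontal bars the mean and brackets the SD of 2 libraries. In the top row both treated points lie above both DMSO points, as for PSMC1 at 115 against 175 CPM, whereas for PSMB5 the means are 131 and 132 CPM.

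The core particle showed no gene called at 0.001 in either direction by edgeR, nor by DESeq2 or limma voom, and at an unadjusted p under 0.05 it had 1 higher (PSMA1) and 0 lower. By the looser threshold of 0.05, 1 of its 13 tested genes was higher (7.69%) and none lower, their median log2 fold change was 0.00, and 7 were above 0 and 6 below. For the 10 core genes with at least 50 CPM in the DMSO libraries, the ratios ran from 0.902 to 1.14 and their 95% intervals reached from 0.788 to 1.31 at the extremes. For the 17 cap genes, all above that level, the ratios ran from 0.998 to 1.53. The standard errors were alike in both groups, 0.09 to 0.10 for these core genes and 0.09 to 0.11 for the cap genes, so the precision of the measurement was similar. The sum over the cap genes was 2750 and 2710 CPM with DMSO and 3260 and 3160 with SGSS05-NS, 17.6% higher in the mean. The sum over the core genes was 1610 and 1540 CPM with DMSO and 1650 and 1640 with SGSS05-NS, 4.44% higher. Per core fragment there were thus 1.70 and 1.76 cap fragments with DMSO and 1.98 and 1.93 with SGSS05-NS. These ratios did not overlap between conditions, and the difference between the groups of genes was not tested. The core sum lacks PSMB3 and covers PSMA1, PSMA2 and PSMA6 only in part, since fragments in their shared exons were not counted. The cap sum leaves out ADRM1 and SEM1, which do not carry the PSM name. The sum of all members was 4940 and 4920 CPM with DMSO and 5520 and 5440 with SGSS05-NS.

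PSMB5 carries the chymotrypsin-like activity of the core and is the site that most proteasome inhibitors bind. It had 132 and 130 CPM with DMSO and 134 and 129 with SGSS05-NS, or 131 ± 1.44 and 132 ± 4.01 CPM (SD, n = 2 each), a ratio of 1.00 (95% interval 0.875 to 1.15). The treated libraries enclosed the controls. PSMB6, the caspase-like subunit, had 108 and 92.1 CPM with DMSO and 112 and 107 with SGSS05-NS, a ratio of 1.09 (95% interval 0.939 to 1.28). PSMB7, the trypsin-like subunit, had 160 and 154 CPM with DMSO and 150 and 157 with SGSS05-NS, a ratio of 0.977 (95% interval 0.852 to 1.12). In all 3 catalytic genes the libraries of the conditions overlapped, and the intervals leave room for changes of up to about the size seen for the weaker cap genes.

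The structural subunits of the beta ring ran from PSMB2 to PSMB4. PSMB4 had 352 and 326 CPM with DMSO and 391 and 380 with SGSS05-NS, a ratio of 1.14 (95% interval 0.988 to 1.31) with an adjusted p of 0.123, and was the beta-ring gene whose groups did not overlap. PSMB2 had 99.0 and 111 CPM with DMSO and 104 and 99.2 with SGSS05-NS, a ratio of 0.970, and PSMB1 had a ratio of 1.03. In the alpha ring the extremes were PSMA4 and PSMA1. PSMA4 had 149 and 151 CPM with DMSO and 136 and 134 with SGSS05-NS, lower in both treated libraries, with a ratio of 0.902 and an adjusted p of 0.193. PSMA3 was also lower in both treated libraries, at a ratio of 0.908 and an adjusted p of 0.227, whereas PSMA5 and PSMA7 had ratios of 1.08 and 1.10 with adjusted p-values of 0.377 and 0.244.

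PSMA1 was the exception in the core. It had 395 and 346 fragments with DMSO and 483 and 471 with SGSS05-NS, a ratio of 1.37 (95% interval 1.14 to 1.64) with an adjusted p of 0.0098, outside the threshold of 0.001. Its count covers only part of its RNA: 26.7% of its exon bases are shared with another annotated gene on the same strand, and fragments there were ambiguous and not counted. PSMA2 and PSMA6, the other alpha genes with shared exons (17.2% and 14.1%), had log2 fold changes of -0.09 each and mean levels of 7.13 and 8.99 CPM with DMSO, far under the 73.6 to 236 CPM of PSMA3, PSMA4, PSMA5 and PSMA7. PSMA8, the alpha subunit of the testis, had 0 fragments in all 4 libraries.

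**Figure D3:**
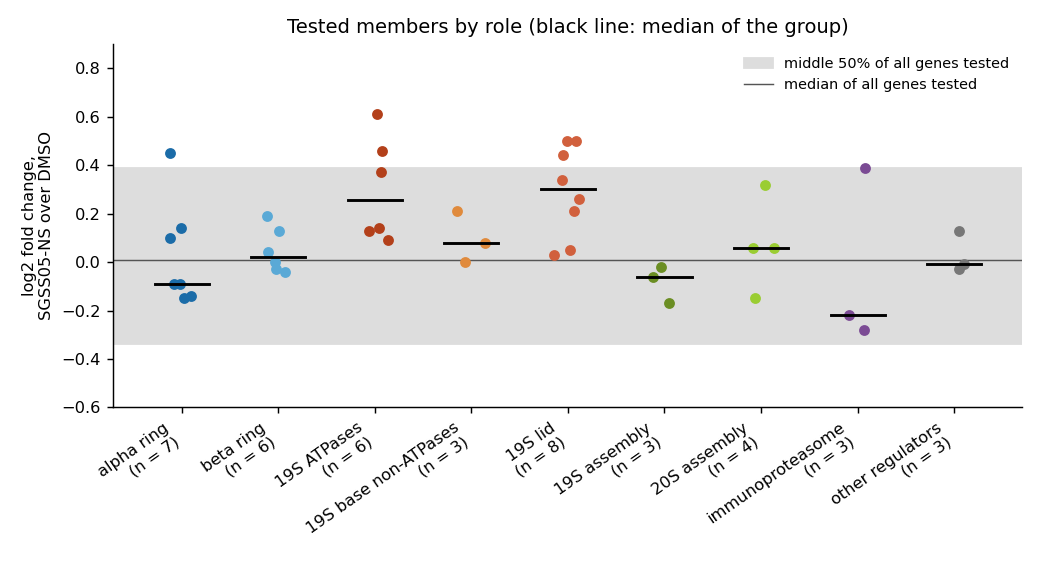
Log2 fold change, SGSS05-NS over DMSO (y axis), of the tested members in each role group (x axis, with the number of genes); black lines are group medians, the grey band is the middle 50% of all tested genes and the thin line their median. The lid (median 0.30) and the ATPases (median 0.26) lie highest, and the alpha ring, the beta ring and the assembly factors lie around 0.

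Levels between genes were compared per kilobase of annotated exon. With DMSO the highest were PSMB4 and PSMA7, at 159 and 135 CPM per kilobase of exon, followed by PSMB7, PSMB5 and PSMD4 at 87.8, 84.7 and 82.7. PSMC1 and PSMD11, at 18.7 and 17.0, were below the catalytic subunits. These levels depend on the length assigned to each gene: with the longest transcript as the length the order at the top was PSMA7, PSMD4 and PSMB4, at 231, 187 and 164. The members are compact genes, with a median genomic length of 16586 bases against 27621 for protein-coding genes.

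Few fragments were counted for the inducible catalytic subunits. PSMB8 had 1, 0, 1 and 1 fragments in the DMSO and SGSS05-NS libraries in that order, and PSMB9 had 0 in all 4. A count of 0 allows a level of up to 0.12 to 0.135 CPM here, counting error only, and a count of 1 allows more. Both genes were removed by the filter on low counts, so neither was tested and no fold is given. PSMB10 had 10 and 11 fragments with DMSO and 9 and 17 with SGSS05-NS, a ratio of 1.31 (95% interval 0.687 to 2.48) that does not separate the conditions, and 39.4% of its exon bases are shared with another gene on the same strand. Per kilobase, PSMB10 made up 0.273% and 0.335% of PSMB7 plus PSMB10 with DMSO and 0.297% and 0.503% with SGSS05-NS. These shares are low estimates, because fragments in the shared exons of PSMB10 were not counted while its full exon length was used. How far they fall short was not tested. PSMB8, at no more than 1 fragment per library, made up 0.0134% and 0% of PSMB5 plus PSMB8 with DMSO and 0.0149% and 0.0147% with SGSS05-NS, and with the canonical transcript as the length 0.028%, 0%, 0.0311% and 0.0307%. PSMB11, the subunit of the thymus, had 0 fragments in 3 libraries and 1 in SGSS05-NS replicate 1.

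**Figure D4:**
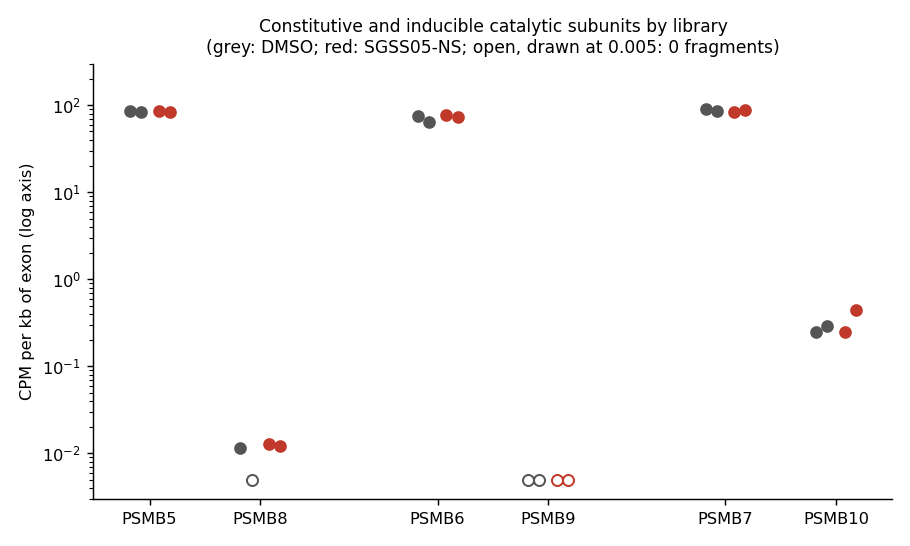
Level of each constitutive catalytic subunit (PSMB5, PSMB6, PSMB7) and of the inducible subunit that can replace it (PSMB8, PSMB9, PSMB10) in each library, in CPM per kilobase of exon on a log axis; grey points are DMSO, red points SGSS05-NS, and open points drawn at 0.005 stand for 0 fragments. The constitutive subunits lie between 60 and 100 in both conditions, PSMB10 lies below 1, and PSMB8 and PSMB9 lie near or at 0. The level of PSMB10 is a low estimate, since fragments in its shared exons were not counted.

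The inducible activator genes PSME1 and PSME2, by contrast, were well expressed. PSME1 had 47.8 and 42.6 CPM with DMSO and 33.9 and 40.8 with SGSS05-NS, a ratio of 0.826 (95% interval 0.695 to 0.983), the lowest log2 fold change of all tested members at -0.28, with an adjusted p of 0.068. PSME2 had 51.8 and 46.0 CPM with DMSO and 42.6 and 41.5 with SGSS05-NS, a ratio of 0.860 with an adjusted p of 0.0974. Both genes were lower in both treated libraries and neither passed 0.05, although PSME1 did with no filter on low counts, with the replicate block and with unstranded counts (adjusted p of 0.0364, 0.0436 and 0.0435). Over the 9 other ways of testing all 4 libraries its adjusted p ran from 0.0364 to 0.125, and with a library left out from 0.0118 to 0.311. For PSME2, 6 pseudogenes share its name, and fragments common to them were not counted.

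The assembly factors had a median log2 fold change of -0.02, and 0 of the 7 passed an adjusted p of 0.05 by edgeR, while 1 (PSMG3) had an unadjusted p under 0.05. PSMG1 and PSMG2, which pair the first alpha subunits, had log2 fold changes of 0.06 each. PSMG3 and PSMG4, their partners in alpha-ring assembly, were the extremes of the chaperones of the core. PSMG3 had 42.6 and 47.2 CPM with DMSO and 47.4 and 64.9 with SGSS05-NS, a ratio of 1.25 with an adjusted p of 0.0671. This value rests on SGSS05-NS replicate 2: the log2 fold change of 0.32 was 0.08 (adjusted p of 0.619) without it, and 0.52 (adjusted p of 0.00073) without SGSS05-NS replicate 1, with the single remaining treated library assumed to vary like the others. PSMG4 had 16.1 and 15.2 CPM with DMSO and 15.9 and 12.5 with SGSS05-NS, a ratio of 0.904. The chaperones of the base, PSMD5, PSMD9 and PSMD10, had log2 fold changes of -0.02, -0.06 and -0.17. The count of PSMD9 covers only part of its RNA, since 14.9% of its exon bases are shared with another gene on the same strand. Its mean level with DMSO was 6.68 CPM, against 35.2 for PSMD5 and for PSMD10. PSMD10, also known as gankyrin, had 36.4 and 34.0 CPM with DMSO and 31.4 and 31.3 with SGSS05-NS, lower in both treated libraries with an adjusted p of 0.197, while PSMD5 had 34.2 and 36.3 CPM with DMSO and 34.6 and 35.1 with SGSS05-NS.

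The other regulators showed no difference beyond their spread. PSME4, a nuclear activator, had 116 and 179 CPM with DMSO and 168 and 153 with SGSS05-NS, so the spread between its DMSO libraries exceeded the difference between conditions, and its standard error of 0.16 was the largest among members above 50 CPM. PSME3, the other nuclear activator, had a ratio of 0.991 with an adjusted p of 0.94. PSMF1, an inhibitor of the core, had 76.6 and 83.2 CPM with DMSO and 75.6 and 81.3 with SGSS05-NS, a ratio of 0.982.

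Parts of the proteasome that do not carry the PSM name moved in both directions. Of 9 such genes, 1 was higher at 0.001 and 0 lower, and at 0.05 there were 2 higher and 3 lower, with a median log2 fold change of -0.01. Of all tested genes, 6.37% were higher and 8.14% lower at 0.001, and 22.6% and 23.7% at 0.05. The share of this list that was higher at 0.05, 22.2%, was thus near the background. ADRM1, a ubiquitin receptor of the base, had 84.1 and 84.4 CPM with DMSO and 144 and 146 with SGSS05-NS. Its groups were far apart relative to their spread, and it rose 1.72-fold with an adjusted p of 3.63e-05, a log2 fold change of 0.78 ± 0.09 (SE). AKIRIN2, which carries proteasomes into the nucleus, had 33.6 and 35.6 CPM with DMSO and 48.5 and 48.6 with SGSS05-NS, a log2 fold change of 0.49 with an adjusted p of 0.0017. SEM1, the smallest lid subunit, went the other way from the lid genes above: it had 109 and 103 CPM with DMSO and 83.7 and 82.0 with SGSS05-NS, a ratio of 0.784 with an adjusted p of 0.00795. UCHL5, the deubiquitinase that binds the ADRM1 protein, had a log2 fold change of -0.29 with an adjusted p of 0.027. POMP, the chaperone that completes the core, had 92.6 and 91.4 CPM with DMSO and 90.5 and 91.8 with SGSS05-NS, a log2 fold change of -0.01.

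Genes of the NRF1 route, which controls subunit genes in other settings, were all higher in both treated libraries. Of the 8 listed, 2 rose at 0.001 and 6 passed 0.05, with a median log2 fold change of 0.59. Over all tested genes 6.37% were higher at 0.001, 22.6% at 0.05 and 37.8% in both treated libraries. NFE2L1 itself had 216 and 223 CPM with DMSO and 250 and 227 with SGSS05-NS, a log2 fold change of 0.12 with an adjusted p of 0.314. The transcript of a factor that is controlled by cleavage and turnover does not report its activity. DDI2, the protease that cleaves NRF1, had 44.6 and 47.0 CPM with DMSO and 66.3 and 60.5 with SGSS05-NS, a log2 fold change of 0.47 with an adjusted p of 0.00215. VCP, the ATPase that extracts NRF1 from the membrane, had the same log2 fold change of 0.47 with an adjusted p of 0.00162. NGLY1, also in this list, had a log2 fold change of 0.05 with an adjusted p of 0.751. MAFG and MAFF, small MAF partners, were the genes that rose at 0.001. MAFG went from 47.1 and 47.4 CPM to 131 and 116, a log2 fold change of 1.38 with an adjusted p of 1.02e-06. MAFF went from 1.59 and 2.44 CPM to 14.2 and 23.5, a log2 fold change of 3.23 with an adjusted p of 3.12e-06. NFE2L2, which encodes the related factor NRF2, had 33.7 and 30.1 CPM with DMSO and 59.3 and 44.8 with SGSS05-NS, a log2 fold change of 0.71 with an adjusted p of 0.00108.

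Genes of class I antigen presentation and of the interferon response were measured beside the immunoproteasome, which serves the same pathway. Of the 7 genes of this list reported here 5 were tested, 1 rose at 0.001, 3 passed 0.05 and none was lower at an adjusted or unadjusted p under 0.05, with a median log2 fold change of 0.48. Of all tested genes, 6.37% were higher at 0.001 and 22.6% at 0.05. IRF1, the interferon-responsive transcription factor, had 64 and 52 fragments with DMSO and 416 and 439 with SGSS05-NS, a log2 fold change of 2.96 with an adjusted p of 1.51e-07. B2M, the class I light chain, had 98.3 and 85.0 CPM with DMSO and 126 and 129 with SGSS05-NS, a log2 fold change of 0.47 with an adjusted p of 0.00236. Its groups did not overlap. ERAP1, which trims peptides for class I molecules, had a log2 fold change of 0.60 with an adjusted p of 0.0118. TAP1, the peptide transporter whose gene lies beside PSMB9, had no fragment with DMSO and 3 and 2 fragments with SGSS05-NS, too few to be tested, and TAP2 had 0 in all 4. IRF1 thus rose while PSMB8 and PSMB9 stayed at no more than 1 fragment per library.

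**Figure D5:**
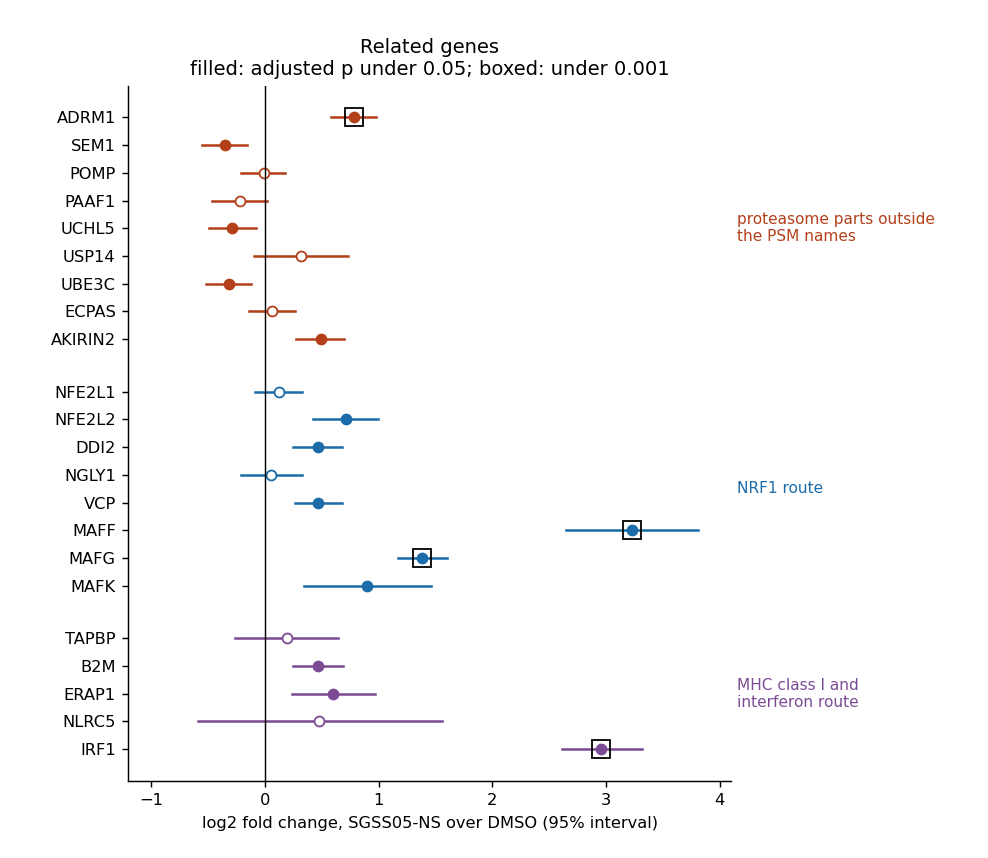
Log2 fold change, SGSS05-NS over DMSO (x axis), of the tested related genes in 3 lists (y axis); lines are 95% intervals from edgeR, filled points have an adjusted p under 0.05 and boxed points one under 0.001. Boxed are ADRM1, MAFF, MAFG and IRF1, while NFE2L1 and POMP lie near 0 and SEM1 lies at -0.35.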

How the data were processed

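RNA of 4 libraries of SY5Y cells (2 DMSO, 2 SGSS05-NS, groups and numbers from the labels) was analysed. The authors used Trimmomatic 0.30 for trimming and STAR 2.4.2a for alignment to hg19, and deposited the raw fragment counts that STAR gave for each gene, neither normalized nor pooled. Each table holds a column of counts without regard to strand and a column for each strand. The column for the strand of the stranded kit named in the methods was used, in which the other strand held 4.64% to 5.05% of fragments. Fragments mapping to several places were not counted, which lowers genes with near-identical copies. Replicates differed beyond sampling noise (chi-square over its degrees of freedom was 8.76 and 11.8).

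Names, positions and exon lengths were matched by gene identifier to GENCODE release 44 on GRCh37, since the names of release 19 were not used here. Of 57820 identifiers 2282 had no match, and PSMB3 was not analysed here. Some genes of the class I and interferon list are not reported here and were left out of its counts. Testing used R 4.3.3 and edgeR 4.0.16 (low counts removed by filterByExpr, TMM, quasi-likelihood test, Benjamini-Hochberg adjustment over 16468 genes, threshold 0.001). Levels are TMM-normalized CPM, and levels per length divide them by the union of exons. The script was tested on simulated data, with changes placed at random among the tested genes. At the 0.001 threshold it recovered 70.4% of 2-fold changes and 3.06% of 1.4-fold changes, with 2 false calls. A gene that was not called may thus still have changed by 1.4-fold. The limit for a count of 0 (3 fragments) covers counting error only.

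Members and lists were chosen with earlier results of these data known. Values per library were given for PSMD11, PSMB5, the catalytic subunits, the called members, the extremes of each role group and, of the related lists, ADRM1, SEM1, POMP, NFE2L1, NFE2L2, DDI2, TAP1 and the 2 genes of each list with the smallest p. The other genes named with values were added after their values were seen. The alternatives were DESeq2 1.42.0, limma 3.58.1 with voom, the likelihood ratio test of edgeR, 2 other scalings, 2 other filters, a replicate block, unstranded counts, thresholds of 0.05 and 0.01, other gene lengths and each library left out.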

Additional observations from a re-analysis of the deposited data

How the results depend on the processing

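PSMC1 was called higher at 0.001 under every setting tried, and no direction of a called gene reversed. The number of members called higher, 1 in the report, was 5 with the likelihood ratio test, 4 with DESeq2, 2 with limma voom, 5 with no filter on low counts, 2 with at least 10 counts in every library, 3 with the replicate block, 9 at an adjusted p under 0.05 and 7 under 0.01. All of these lay in the cap except PSMA1, the 1 core gene at 0.05 and at 0.01: the cap had 5, 4, 2, 5, 2, 3, 8 and 6 under the same settings. The genes added were PSMD11, PSMD12, PSMC2 and PSMD6 for the settings at 0.001. Leaving out a library gave 1 to 3 members and 1 to 2 cap genes: 1 without DMSO replicate 1, 2 without DMSO replicate 2 (PSMD12 added), 3 without SGSS05-NS replicate 1 (PSMD12 and PSMG3 added, the latter the 1 assembly gene in a range of 0 to 1) and 2 without SGSS05-NS replicate 2 (PSMD11 added), with the single library of a condition assumed to vary like the others. Over all genes the likelihood ratio test called 2022 higher and 2267 lower, DESeq2 1126 and 1576, limma voom 1005 and 1306, and the replicate block 1759 and 2007. The fit with no filter called 2034 and 2570 of 30755 genes, and that with at least 10 counts in every library 908 and 1235 of 14630.

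The replicate differences of the 2 conditions correlated at 0.0621 over 16468 genes, which does not settle whether the replicate numbers pair the samples. The median log2 fold change of the members was 0.11 with scaling by library size, 0.04 with unstranded counts and 0.04 to 0.10 with a library left out. For the core it was 0.04, -0.03 and -0.03 to 0.06 under the same settings, and for the cap 0.25, 0.18 and 0.18 to 0.24, with 0.19 when no filter was used. Related genes of the NRF1 route called higher numbered 5 with the likelihood ratio test, 4 with DESeq2, 6 with no filter, 4 with the replicate block, 6 at 0.05, 5 at 0.01 and 2 to 5 with a library left out, the highest without SGSS05-NS replicate 2. For proteasome parts outside the PSM names the count was 2 with the likelihood ratio test, no filter, the replicate block, 0.05 and 0.01, and 1 to 2 with a library left out, while 3 were lower at 0.05 and 1 at 0.01. The class I and interferon list had 2 higher with the likelihood ratio test, DESeq2, no filter, the replicate block and 0.01, 3 at 0.05 and 1 to 2 with a library left out, the highest without DMSO replicate 1. The median level per kilobase with DMSO was 25.2 in the core and 34.7 in the cap by the union of exons, 61.2 and 64.6 by the longest transcript, and 81.9 and 85.0 by the canonical transcript. The canonical length, the other lengths for the catalytic shares and the leaving out of the 8 members with shared exons were chosen after seeing the data.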

Other observations

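None of the rows named after proteasome genes that do not encode subunits passed 0.001. These genes were chosen after their values were seen. PSMA6P1, a pseudogene of PSMA6, had 33 and 41 fragments with DMSO and 13 and 12 with SGSS05-NS, a log2 fold change of -1.48 with an adjusted p of 0.0039 by edgeR's quasi-likelihood test, while PSMA6 itself had a log2 fold change of -0.09. PSMC1P1, the most abundant pseudogene of PSMC1, had 25 and 22 fragments with DMSO and 18 and 23 with SGSS05-NS, a log2 fold change of -0.11 beside the 0.61 of PSMC1. PSMD7-DT, a transcript that starts beside PSMD7 on the other strand, had 6 and 2 fragments with DMSO and 11 and 15 with SGSS05-NS, with an adjusted p of 0.0163. PSMA3-AS1, antisense to PSMA3, had 728 and 812 fragments with DMSO and 568 and 660 with SGSS05-NS, a log2 fold change of -0.25 with an adjusted p of 0.109. PSMC3IP, the gene that shares only the prefix, had 596 and 516 fragments with DMSO and 698 and 643 with SGSS05-NS, a log2 fold change of 0.36 with an adjusted p of 0.0249.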
